A study of Mus musculus with 12 samples.

Results

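Sfrp2, Dkk2 and Wnt10b are 3 genes of the Wnt pathway that were brighter in the mouse osteoblast line 2T3 than in the mouse osteocyte line MLO-Y4. They are 3 of the 4605 genes named on an array of 5030 spots, with 1 spot each (N09a4/b4, L01c6/d6 and G13a3/b3). They were found by gene symbol, and they were chosen by their difference between the lines in these same data. That difference is therefore given as a description without a test, and tests are kept for the effect of culture density within a line. Total RNA was measured on 12 arrays, 3 for each of 4 groups. The 2T3 groups are named C0 and low, and those of MLO-Y4 are named high and low. 2T3 came from a mouse with the SV40 T antigen behind the BMP-2 promoter, and MLO-Y4 from a mouse with T antigen behind the osteocalcin promoter, so both lines carry T antigen. Each cell type was represented by 1 line, so cell type, line and source mouse cannot be told apart. The labels set sparse against confluent osteoblasts, and osteocytes that have gap junctions against osteocytes that lack them. C0 was taken as the confluent state and high as the state with gap junctions only because the other group of each line is called low.

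Wnt proteins are secreted lipid-modified ligands that bind Frizzled receptors and the co-receptors Lrp5 and Lrp6, which lets beta-catenin reach the nucleus and act with TCF and LEF factors. Wnt10b is a ligand that favours osteoblast over adipocyte formation in mouse bone. Sfrp2 is a secreted protein with a Frizzled-like domain that can bind Wnt ligands. Dkk2 is a secreted protein that binds the Lrp co-receptors and can reduce signalling through them. Osteocytes are a known source of secreted Wnt inhibitors in bone.

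The promoter windows of the 3 genes are shown because the genes were lower in the same line. Each window is 300 bases of RefSeq sequence (build GRCm38.p6) from 250 before to 50 after the start of transcription, written 5′ to 3′ on the strand of the gene. Sfrp2 lies at chr3:83766071-83766370 on the plus strand, Dkk2 at chr3:132085042-132085341 on the plus strand and Wnt10b at chr15:98778101-98778400 on the minus strand. Capitals mark matches to the motifs named after the sequences.
Sfrp2: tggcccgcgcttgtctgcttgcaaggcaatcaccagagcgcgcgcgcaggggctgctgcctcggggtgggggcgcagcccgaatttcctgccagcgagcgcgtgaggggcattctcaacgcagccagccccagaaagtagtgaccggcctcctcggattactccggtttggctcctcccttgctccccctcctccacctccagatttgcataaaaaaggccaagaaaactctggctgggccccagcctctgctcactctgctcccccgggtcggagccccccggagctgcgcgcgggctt
Dkk2: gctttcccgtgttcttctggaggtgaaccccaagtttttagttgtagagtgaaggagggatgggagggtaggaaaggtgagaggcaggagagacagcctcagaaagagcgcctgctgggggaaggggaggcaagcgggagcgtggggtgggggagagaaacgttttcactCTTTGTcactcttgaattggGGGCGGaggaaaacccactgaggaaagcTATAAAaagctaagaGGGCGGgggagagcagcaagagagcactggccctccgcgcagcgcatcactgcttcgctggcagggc
Wnt10b: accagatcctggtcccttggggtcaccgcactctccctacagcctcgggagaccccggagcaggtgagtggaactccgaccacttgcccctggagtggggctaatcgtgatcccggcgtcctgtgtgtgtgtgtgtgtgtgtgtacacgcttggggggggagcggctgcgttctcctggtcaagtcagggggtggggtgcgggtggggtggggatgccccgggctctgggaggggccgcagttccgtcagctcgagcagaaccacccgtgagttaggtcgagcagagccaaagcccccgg

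The motifs were searched on both strands. They were the TCF/LEF cores CTTTGA and CTTTGT, the RUNX core ACCACA, the TATA box TATAAA, the GC box GGGCGG, the homeobox core TAATTA and the E-box CACGTG, none of which overlapped another in these windows. The Dkk2 window held CTTTGT once, at position -80 from the start site, TATAAA once at -32, and GGGCGG at -60 and -17. Among all 32851 promoter windows of this length, 18.7% held CTTTGT, 13.6% TATAAA and 35.7% GGGCGG. The Sfrp2 and Wnt10b windows held 0 matches to these letters. CTTTGA was found in 5257 of the windows, ACCACA in 16.8%, TAATTA in 5.29% and CACGTG in 7.15%. GC content was 66.0% for Sfrp2, 57.7% for Dkk2 and 66.3% for Wnt10b, against a median of 52.7% over all windows.

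The deposited values are linear intensities from which a background had been subtracted. They ran from -23 to 53055. The detection limit of an array was set to the absolute value of its lowest spot, which ran from 3 to 23 intensity units, and each array had 37.9% to 74.8% of its spots above that limit. Median intensity ran from 4 units (2T3 low replicate 3, which was also the dimmest array in total) to 55. Levels below were scaled to equal array medians, floored at 3.96 scaled units and put on the log2 scale. Values at the floor have no order. The limit was highest after scaling on the MLO-Y4 low and high arrays numbered 1, at 36.3 and 34.3 scaled units, against 4.04 to 13.6 on the other 10 arrays. Of 12 listed osteocyte markers 5 were measured, and Sost, Dmp1, Mepe and Fgf23 had no named spot. Of the 5, 4 were higher in MLO-Y4 (Pdpn, Capg, Dstn and Cd44), against 8.23% of all spots. None of the 5 was lower, against 1.87% of all spots. The summed scaled levels of the 5 were 372 to 1246 in 2T3 and 5090 to 16107 in MLO-Y4. The list is short, and its count is a description. Pdpn, an early osteocyte protein, rose in MLO-Y4 by 3.46 on the log2 scale (SE 0.70, limma adjusted p = 0.00984). Phex, also an osteocyte marker, was above the limit on 0 of 12 arrays. Of 8 osteoblast markers measured, 1 was higher in MLO-Y4 and 1 lower (Msx2). Alpl was the higher one (2.85, SE 0.76, adjusted p = 0.0389). The summed scaled levels of the 8 overlapped between the lines, at 5607 to 12326 in 2T3 and 5369 to 18229 in MLO-Y4. Bglap (-1.61, SE 1.04, adjusted p = 0.441) and Ibsp (-0.44, SE 0.68, adjusted p = 0.789) did not pass the test. Of markers of other cells, 1 of 4 for chondrocytes was higher in MLO-Y4 (Col10a1), and 1 of 3 for adipocytes (Pparg) and 1 of 6 for macrophages (Tyrobp) were lower. Their summed scaled levels ran from 30.7 to 72.7 in 2T3 and 132 to 1072 in MLO-Y4 for chondrocyte markers, from 30.1 to 278 and 3.63 to 59.0 for adipocyte markers, and from 123 to 332 and 141 to 810 for macrophage markers. The macrophage marker Ptprc and the chondrocyte marker Comp were above the limit on no array. Of 5 endothelial and 3 muscle markers 0 passed. Their summed scaled levels in 2T3 were 6.86 to 73.9 for endothelial and 39.5 to 159 for muscle markers. In MLO-Y4 they were 12.7 to 307 and 96.3 to 372. With at most 1 call in each of these short lists of other cells nothing is read from the counts, and the part of such cells in the results was not tested.

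Sfrp2 was bright in the osteoblast line and near background in the osteocyte line. Its deposited intensity was 3623, 3970 and 3500 on the 2T3 C0 arrays and 1742, 892 and 334 on the 2T3 low arrays, numbered 1 to 3. On the MLO-Y4 arrays it was 9, 6 and -2 at low density and 4, -3 and 5 at high density. All 6 2T3 arrays lay above their detection limit. In MLO-Y4 only the low array numbered 2 did, at 6 units against a limit of 5. After scaling, 2T3 C0 lay at 2862, 1603 and 1156 and 2T3 low at 586, 559 and 1517. The low array numbered 3 thus fell among the C0 arrays. The scale of that array rests on a median of 4 whole units.

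Between the lines, the geometric mean of scaled Sfrp2 intensity was 1175 over the 6 2T3 arrays and 7.45 over the 6 MLO-Y4 arrays. The log2 difference was -7.30 (SE 0.46), and its size rests on MLO-Y4 values of which 5 of 6 were not above the limit. It was -6.47 (SE 0.65) at low density and -8.13 (SE 0.65) between MLO-Y4 high and 2T3 C0. In that last comparison no MLO-Y4 array was above its limit, so the fold is a bound, with Sfrp2 at least 125-fold lower in MLO-Y4 high. The nearest arrays of the lines were 5.09 apart on the log2 scale. The highest group was 2T3 C0 (10.77 ± 0.66 log2 units, SD, n = 3), followed by 2T3 low (9.63 ± 0.81). MLO-Y4 lay at 3.15 ± 1.05 at low density and 2.64 ± 0.57 at high density. The 2T3 groups overlapped, the MLO-Y4 groups have no order, and the lines did not overlap.

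Dkk2 was present on all 2T3 arrays at a moderate level and lower but still measurable on 4 of 6 MLO-Y4 arrays. Its deposited intensity was 85, 184 and 137 in 2T3 C0, 252, 81 and 18 in 2T3 low, -2, 11 and 8 in MLO-Y4 low and 4, 39 and 21 in MLO-Y4 high. The MLO-Y4 arrays not above the limit were both those numbered 1. After scaling, the 2T3 arrays ran from 45.3 to 84.8 and the MLO-Y4 arrays from -3.63 to 31.8, so the lines did not overlap. The gap between the nearest arrays, 2T3 C0 replicate 3 and MLO-Y4 high replicate 3, was 0.51 on the log2 scale.

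The line difference of Dkk2 was -2.27 on the log2 scale (SE 0.48), from a geometric mean of 65.6 in 2T3 to 13.6 in MLO-Y4, which is 4.83-fold. Only 4 of 6 MLO-Y4 values were above the limit, so this size rests in part on undetected values. It was -2.84 (SE 0.68) at low density and -1.71 (SE 0.68) at the denser state. Group levels were 6.14 ± 0.41 log2 units in 2T3 low (SD, n = 3), 5.93 ± 0.38 in 2T3 C0, 4.22 ± 1.06 in MLO-Y4 high and 3.30 ± 1.19 in MLO-Y4 low. The 2T3 groups overlapped, and the lines did not. Without the 4 arrays numbered 1 the line difference was -1.54.

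Wnt10b, the ligand, was dim in 2T3 and not above background in MLO-Y4. Its deposited intensity was 51, 64 and 62 in 2T3 C0, 89, 35 and 6 in 2T3 low, -2, 0 and 7 in MLO-Y4 low and 0, 5 and -3 in MLO-Y4 high. All 6 2T3 arrays were above the limit, the low array numbered 3 at 6 units against a limit of 3. No MLO-Y4 array was, since the value of 7 on the low array numbered 3 equalled its limit. Scaled levels ran from 20.5 to 40.3 in 2T3 and from -4.54 to 10.6 in MLO-Y4, with a gap of 0.95 on the log2 scale between the floored values of the nearest arrays. On both MLO-Y4 arrays numbered 1, the limit of 36.3 or 34.3 lay above the 2T3 geometric mean of 26.9, so a signal of that size would not have passed there.

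The fitted line difference of Wnt10b was -2.53 on the log2 scale (SE 0.34), but 5 of its 6 MLO-Y4 values lay at the floor. As a bound, Wnt10b was at least 1.85-fold lower in MLO-Y4 over both densities, at least 1.72-fold lower at low density and at least 1.99-fold lower when the high group was set against C0. The 2T3 groups overlapped, at 4.79 ± 0.50 log2 units in C0 (SD, n = 3) and 4.71 ± 0.23 in low.

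**Figure D1:**
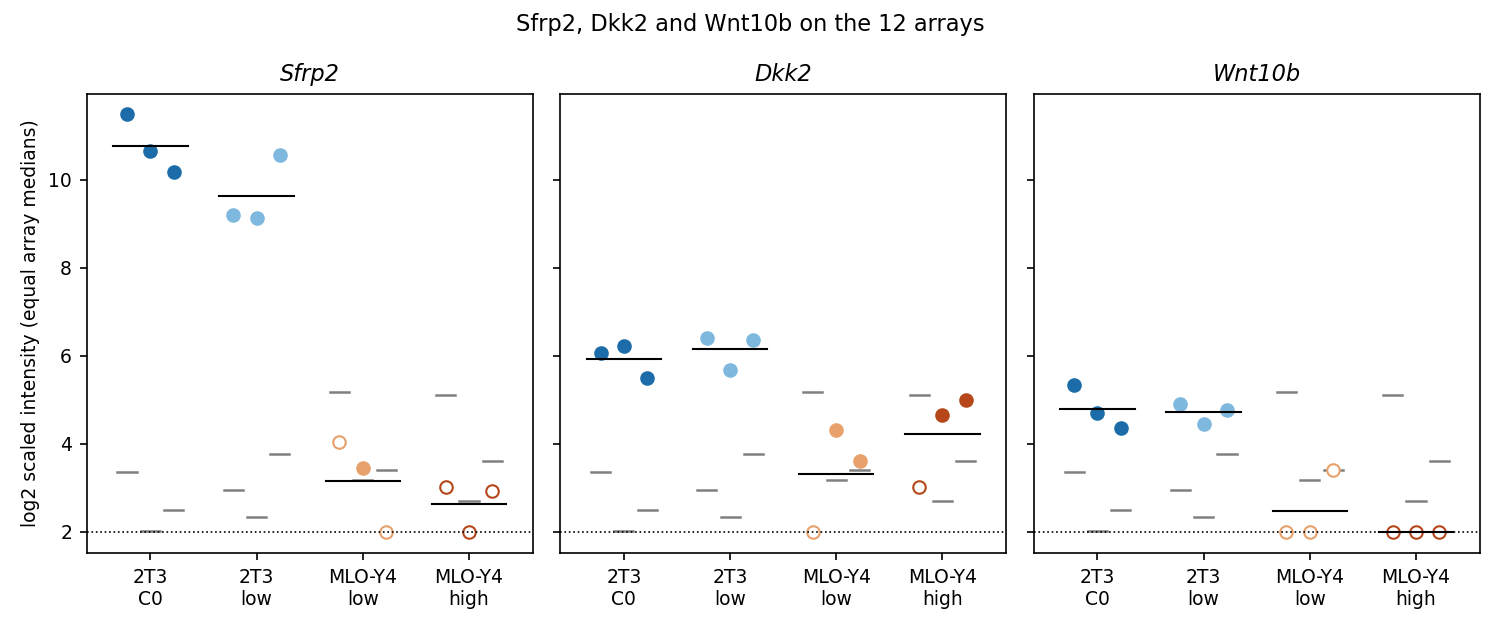
Each point is 1 array, on the log2 scale of intensity scaled to equal array medians, for Sfrp2, Dkk2 and Wnt10b in 4 groups of 3 arrays in the order of their numbers. Filled points lie above the detection limit of their array (short grey lines), open points do not, black lines are group means and the dotted line is the floor of 3.96 scaled units. The 2T3 points lie above the MLO-Y4 points for each gene, by 5.09 log2 units for Sfrp2 and 0.51 for Dkk2 between the nearest arrays.

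Over all spots, 508 of 5030 passed limma adjusted p 0.05 in the line comparison (10.1%), of which 414 were higher in MLO-Y4 (8.23%) and 94 lower (1.87%). The 3 genes were picked from among those 94. The lines did not overlap, with MLO-Y4 lower, for 38 of 5030 spots (0.755%), the 3 genes among them, and nothing is read from that. The split of calls depended on the scaling, with 293 higher and 175 lower by quantile normalization and 240 higher and 308 lower with arrays scaled on the spots above the limit on all 12 arrays (detected-spot scaling). With equal medians the median difference of those spots was 0.79, higher in MLO-Y4. Relative to that shift the line difference was -8.09 for Sfrp2, -3.06 for Dkk2 and -3.31 for Wnt10b. The 3 genes were also lower in MLO-Y4 by quantile normalization (-7.45, -2.47 and -2.41) and by detected-spot scaling (-8.10, -2.92 and -2.91). In MLO-Y4, Sfrp2 was above the limit on 1 of 6 arrays, Dkk2 on 4 and Wnt10b on none. The sizes here, also those relative to the shift, thus rest on values at or near the floor, for Dkk2 only in part.

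The comparison of C0 with low in 2T3 asked whether the genes changed with osteoblast density, which the choice of members did not use. None of the 3 passed the test, and neither did any of the 5030 spots in limma (0 called, 0.0%; 141 had an unadjusted p under 0.05, and 2 passed with array weights). Sfrp2 was 2.20-fold higher in C0 (log2 1.14, SE 0.65, 95% interval of the fold 0.814 to 5.96, limma unadjusted p = 0.108, adjusted p = 1). The low arrays numbered 1 and 2 lay below all C0 arrays, and the dim low array numbered 3 lay among them. Without that array the difference was 1.61, and without C0 replicate 1 it was 0.78. On unscaled intensities, where no C0 array overlapped a low array, the difference was 2.20 on the log2 scale (limma unadjusted p = 0.00749, adjusted p = 0.538). Without scaling the median difference over all spots was also higher in C0, by 0.67. It was 1.08 over the spots above the limit on every array. How much of the 2.20 is particular to Sfrp2 was not tested. Dkk2 differed by -0.21 (SE 0.68, fold interval 0.304 to 2.45, adjusted p = 1) and Wnt10b by 0.08 (SE 0.48, 0.508 to 2.21, adjusted p = 1).

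In MLO-Y4, high against low density also gave 0 of 5030 calls in limma (0.0%; 116 with an unadjusted p under 0.05). Dkk2 was 1.89-fold higher at high density (log2 0.92, SE 0.68, fold interval 0.667 to 5.36, unadjusted p = 0.205, adjusted p = 1). Both arrays numbered 1 were below their limits and have no order. Of the arrays above the limit, the high ones lay at 25.3 and 31.8 scaled units and the low ones at 20.0 and 12.1. Same-numbered MLO-Y4 arrays deviated together from their group means (correlation over all spots 0.480 to 0.627), and with the number as a block within the line the unadjusted p was 0.0810 and the adjusted p 1. The difference depended on the arrays numbered 1, at 0.26 without MLO-Y4 low replicate 1 and 1.52 without MLO-Y4 high replicate 1, and was 0.87 without all 4 arrays of that number. Sfrp2 (-0.51, SE 0.65) and Wnt10b (-0.47, SE 0.48) had only 1 and 0 of their 6 MLO-Y4 arrays above the limit, so their differences carry no order between the densities.

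The difference between the density effects of the lines was tested directly, and 0 of 5030 spots passed (0.0%; 104 with an unadjusted p under 0.05 in limma). For Sfrp2 it was -1.65 (SE 0.92, 95% interval -3.68 to 0.38, unadjusted p = 0.100), for Dkk2 1.13 (SE 0.96, -0.99 to 3.26, unadjusted p = 0.265) and for Wnt10b -0.56 (SE 0.68, -2.06 to 0.94, unadjusted p = 0.430). Each adjusted p was 1. For Sfrp2 and Wnt10b these values carry the MLO-Y4 arrays that were not above the limit, so they give no measure of how the density effects of the lines compare.

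**Figure D2:**
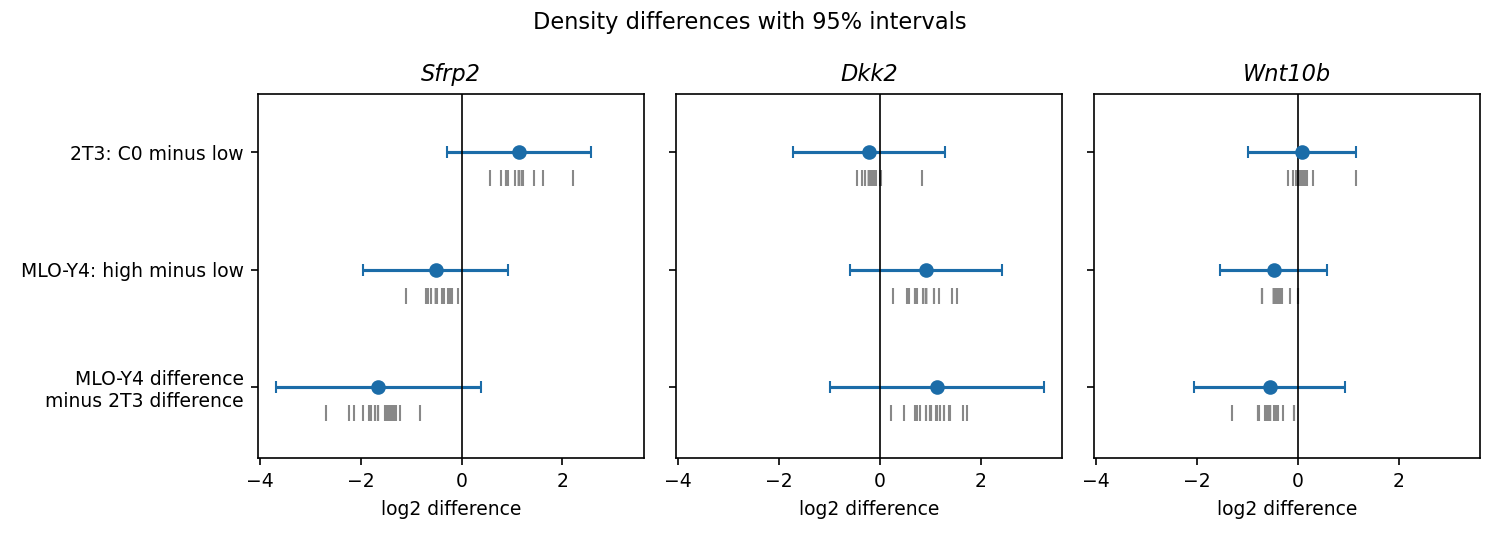
Blue points are the log2 density differences of the 3 genes with their 95% intervals from limma over 12 arrays, for C0 minus low in 2T3, high minus low in MLO-Y4, and the second minus the first. Grey ticks are the same differences under the alternative settings. Every interval crosses 0, and the ticks of Sfrp2 in 2T3 run from 0.56 to 2.20, all above 0. The 2.20 is the value without scaling, where the median over all spots was 0.67.

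The rest of the pathway was read from a list of 151 Wnt genes in 6 roles, of which 79 were measured. With the 3 genes included, 13 of 79 passed in the line comparison, 10 higher and 3 lower in MLO-Y4, with a median difference of 0.24 against 0.11 over all spots. The medians were 0.0086 and -0.032 by quantile normalization, and both -0.41 with detected-spot scaling. The 3 lower were Sfrp2, Dkk2 and Wnt10b, which is how they were chosen. Without them 10 of 76 were higher (13.2%, against 8.23% of all spots) and 0 lower. The list was also drawn up with earlier results of these data known, so its counts are a description. Quantile normalization gave 8 higher and 4 lower of 79, the fourth lower gene being Ctbp1. Detected-spot scaling gave 8 higher and 6 lower, with Ctbp1, Lrp5 and Ctnnb1 beside the 3 genes. At low density 4 of the 76 were higher (188 of all spots passed in either direction, 3.74%), and at the denser state 6 (139 of all spots, 2.76%), with 0 lower in both. With the replicate number as a block over all arrays, 11 Wnt genes passed at low density in place of 7, 3 of them lower in both fits, and 308 of all spots in place of 188. At the denser state 10 passed in place of 8, and 236 of all spots in place of 139. In the density comparisons 0 of 79 passed in limma, with 4 at an unadjusted p under 0.05 in 2T3, 3 in MLO-Y4 and 4 in the difference between the lines.

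Among the ligands, Wnt10b was the only one of 13 measured that lay above the limit on all 6 2T3 arrays, and 0 of 13 did so on all 6 MLO-Y4 arrays. Over all spots 39.3% were above it on every 2T3 array and 29.3% on every MLO-Y4 array. Since Wnt10b was chosen as higher in 2T3, nothing is read from its place among the ligands. The other 12 ligands ran from -0.86 (Wnt4, SE 0.64) to 0.97 (Wnt8a, SE 0.59) between the lines, and none passed the test, by quantile normalization or detected-spot scaling either. The close relative Wnt10a was level between the lines, at 16.2 scaled units in 2T3 and 16.1 in MLO-Y4 (-0.01, SE 0.73), and was above the limit on 8 of 12 arrays. Wnt8b was above it on 9 of 12 (0.96, SE 0.64) and Wnt2b on 6 (-0.40, SE 0.88). Wnt7b was above it on 6 (0.19, SE 0.64), Wnt7a on 5 (0.27, SE 0.61), Wnt8a on 5, Wnt11 on 5 (0.26, SE 0.58) and Wnt4 on 5. Wnt3 and Wnt6 were above it on 2 arrays each, Wnt5a on 1 and Wnt3a on 0. Most ligands were thus near background in both lines, which limits what their differences can show.

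Among the secreted inhibitors, Sfrp2 and Dkk2 were the 2 of 10 measured that lay above the limit on all 2T3 arrays. Of all spots 39.3% did so, and both genes were chosen as higher in 2T3, so nothing is read from that. None of the other 8 passed the test under any of the 3 scalings. Of the other Sfrp genes, Sfrp4 differed by 1.44 (SE 0.56, adjusted p = 0.156), Sfrp1 differed by 0.30 (SE 0.39), and Frzb was above the limit on no array. Of the other Dkk genes, Dkk1 differed by -0.72 (SE 0.39, adjusted p = 0.331), Dkk3 by -0.22 (SE 0.52) and the related Dkkl1 by -1.24 (SE 0.80). The Wnt-binding inhibitor Wif1 differed by -0.60 (SE 0.51) and Cer1 by -1.10 (SE 0.56). Of these 8 genes, the most often detected was Dkkl1, above the limit on 7 of 12 arrays. Dkk1 was above it on 2.

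**Figure D3:**
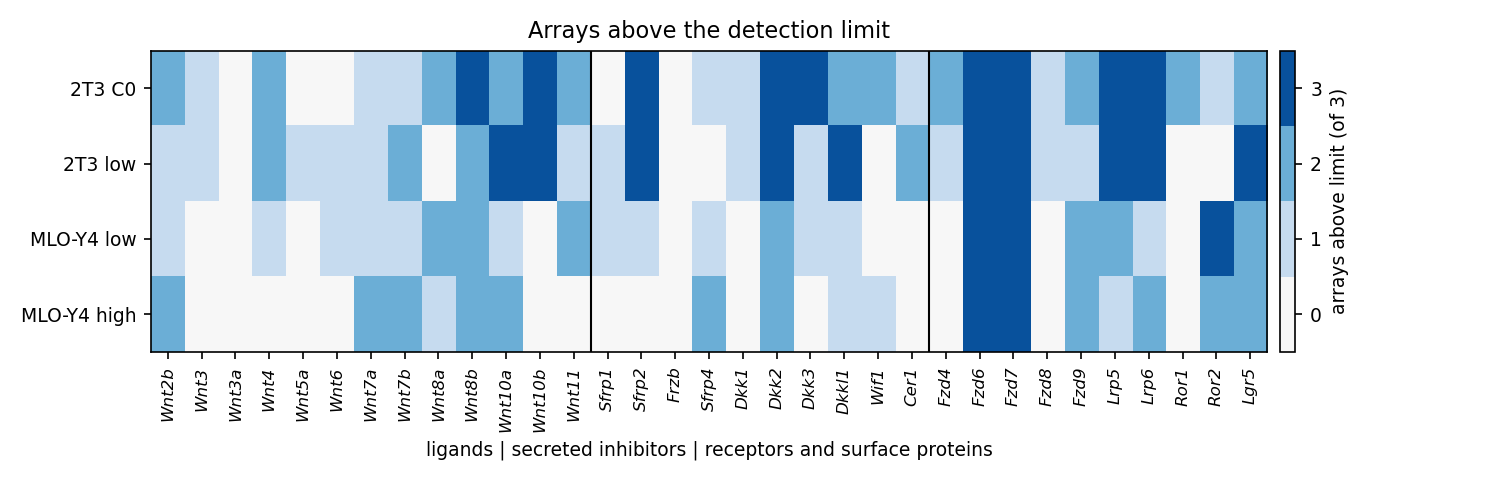
Shading gives the number of arrays out of 3 on which each measured Wnt ligand, secreted inhibitor and receptor (columns) was above the detection limit in each group (rows). Sfrp2 and Wnt10b are dark in both 2T3 rows and pale in the MLO-Y4 rows, Dkk2 is at 3 and 2, and the receptors Fzd6 and Fzd7 are dark in all 4 rows.

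Among the receptors, the Frizzled genes Fzd7 (0.61, SE 0.62) and Fzd6 (0.45, SE 0.47) were detected on each of the 12 arrays and did not pass the test between the lines. Their sign turned with detected-spot scaling (-0.25 and -0.40). Fzd9 differed by 1.68 (SE 0.51, adjusted p = 0.0654), and Fzd4 (-0.90, SE 0.49) and Fzd8 (-0.26, SE 0.32) were near background. The co-receptors through which Dkk2 acts were Lrp5 at -1.26 (SE 0.48, adjusted p = 0.144) and Lrp6 at -1.64 (SE 0.99, adjusted p = 0.401). Lrp5 passed with detected-spot scaling (-2.12, adjusted p = 0.0281). The receptor that rose was Ror2, a receptor tyrosine kinase for Wnt5a, at 3.72 (SE 0.32, adjusted p = 4.45e-05). It went from 4.47 scaled units in 2T3, with 1 of 6 arrays above the limit, to 58.8 in MLO-Y4, with 5 of 6, so the size of the rise rests on values near the floor. Ror1 was at 0.06 (SE 0.60), and Lgr5, an R-spondin receptor and Wnt target, at 1.22 (SE 0.96).

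Inside the cell, 0 of 14 measured signalling genes passed, and 1, Dvl3, passed with the replicate number as a block over all arrays (adjusted p = 0.0348). Those with the smallest p were Dvl2 (1.04, SE 0.38, adjusted p = 0.127), Ctnnb1, which encodes beta-catenin (-1.54, SE 0.57, adjusted p = 0.135), Dvl3 (1.86, SE 0.74) and the kinase gene Csnk1e (1.00, SE 0.46). Ctnnb1 passed with detected-spot scaling (-2.17, adjusted p = 0.0375). With the members left out, Ctnnb1 and Lrp5 were the list's genes nearest the threshold on the lower side. Among 11 nuclear factors the corepressor gene Ctbp2 (1.93, SE 0.41, adjusted p = 0.0132) and the Groucho family gene Tle5 (1.54, SE 0.38, adjusted p = 0.0285) rose. Both calls ended with quantile normalization (adjusted p = 0.0541 and 0.247) and with detected-spot scaling (adjusted p = 0.0984 and 0.207). Ctbp1 differed by -0.92 (SE 0.47, adjusted p = 0.302) and passed as lower in MLO-Y4 by quantile normalization (-1.54, adjusted p = 0.0193) and detected-spot scaling (-1.78, adjusted p = 0.00647). Ruvbl1 differed by 0.82 (SE 0.51). Tcf7l2, the TCF factor gene measured at 822 and 1003 scaled units, differed by 0.29 (SE 0.51), and by -0.57 with detected-spot scaling.

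Of 23 measured genes listed as Wnt targets, 7 rose in MLO-Y4 (30.4%, against 8.23% of all spots) and 0 fell. The list was drawn up with earlier results of these data known, so the share is a description and nothing is read from it. The median of the 23 genes was 1.04, beside the shift of 0.79 of the spots above the limit on all 12 arrays. Of the 23, 13 were such spots, against 1253 of all 5030 spots, so the 2 shares are not alike in brightness. The 7 also passed by both other scalings. They were Ptgs2, a prostaglandin synthase gene (7.49, SE 0.66), the angiogenic factor gene Vegfa (4.71, SE 0.44), the urokinase receptor gene Plaur (3.89, SE 0.71) and Enc1 (3.32, SE 0.57). The others were the hyaluronan receptor gene Cd44 (3.15, SE 0.69), the AP-1 gene Fosl1 (2.84, SE 0.42) and the growth regulator gene Myc (2.02, SE 0.36). These genes respond to many other signals besides Wnt. Axin2, which is widely used as a direct readout of beta-catenin signalling, was above the limit on 6 of 12 arrays and differed by -0.32 (SE 0.49, adjusted p = 0.788). Lef1, Tcf7, Nkd1 and Rnf43 of that list had no named spot on the array.

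**Figure D4:**
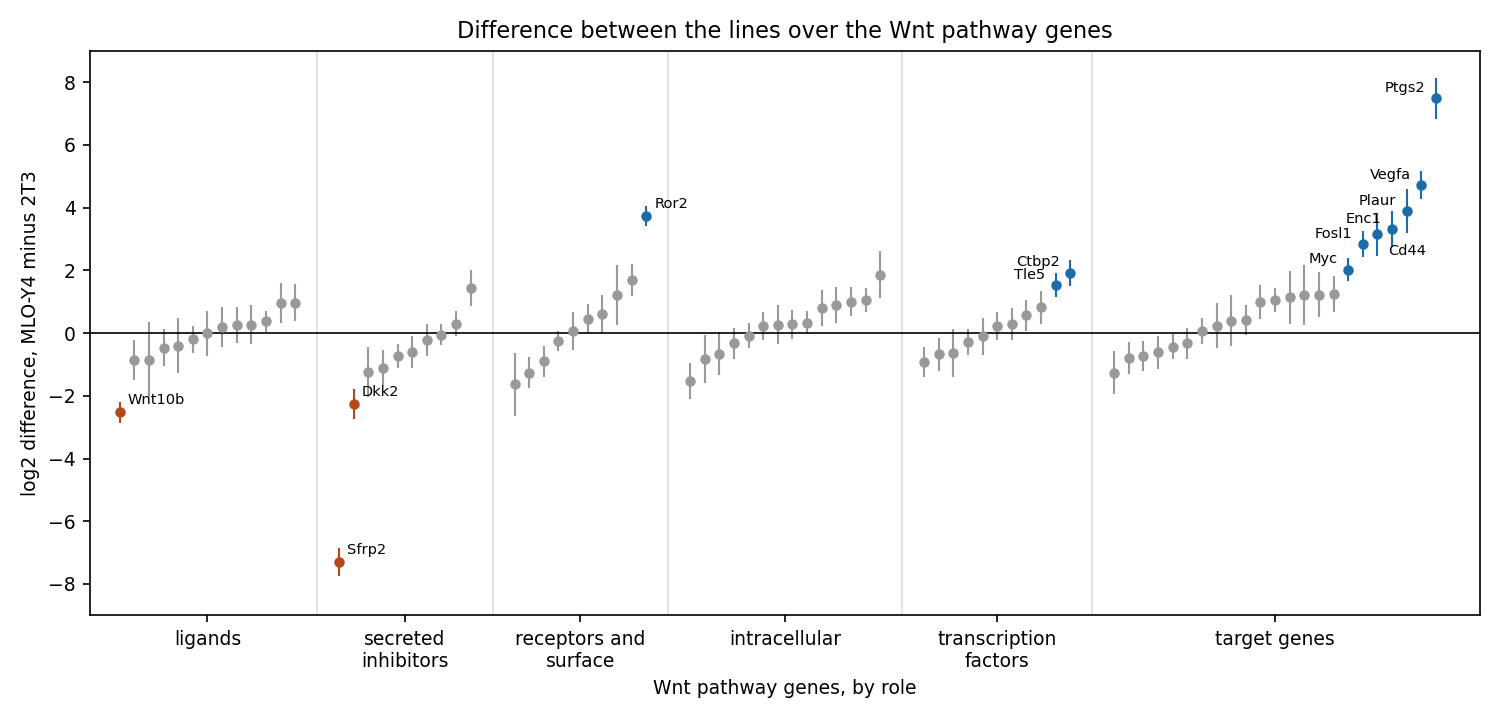
Each point is the log2 difference between the lines (MLO-Y4 minus 2T3) of 1 measured Wnt pathway gene with its SE, sorted within 6 roles. Sfrp2, Dkk2 and Wnt10b are orange, other genes that passed limma adjusted p 0.05 are blue and named, and the rest are grey. Axin2 and Lgr5 appear in 2 roles each, and the 7 blue target genes lie between 2.02 and 7.49.

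The genes most like each member over the 12 arrays were found among 3628 named spots above the limit on at least 3 arrays, by Pearson's r of log2 intensity. Since the arrays fall into 2 lines, r mainly reflects the difference between the lines and is given as a description. The members were chosen by that same difference, so nothing is read from likeness between them or from genes they share. All the genes found were above the limit on 6 of 6 2T3 arrays. In MLO-Y4, Mfng and Wnt10b were above it on 0 of 6 arrays, Hs6st2 and Gpc6 on 1, and Sim2 on 6. For most of the genes r thus rests in part on values at or near the floor. For Sfrp2 they were the homeobox gene Six2 (r = 0.975), Hs6st2, a heparan sulphate sulphotransferase gene (0.926), the glypican gene Gpc6 (0.923), Mfng, a Notch-modifying glycosyltransferase gene (0.918), and Wnt10b itself (0.918). Wnt10b shared Six2 (0.933) and Hs6st2 (0.934) with Sfrp2, next to Hebp1 (0.939), the actin regulator gene Evl (0.935) and the transcription factor gene Sim2 (0.928). Those of Dkk2 were different, namely Mag (0.928), the phosphatase gene Ptpn12 (0.907), the GTPase gene Mras (0.880), Cox8b (0.875) and Dcaf8l (0.872). Six2 went from 309 scaled units in 2T3 to 12.6 in MLO-Y4 and Mag from 307 to 15.4. Within 2T3, Gpc6 was higher in C0 by 1.94 on the log2 scale and Six2 by 0.39, beside 1.14 for Sfrp2, and none of them passed the test.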

How the data were processed

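The deposited table holds linear spot intensities of total RNA on 12 arrays; the labels do not say how the authors made them, and background subtraction is read from values below 0. Image software and background method: not given in the sources used here. Of 5030 spots, 4633 had 1 gene symbol in the platform annotation, 5 had several and 392 were unnamed; 4624 symbols were updated by Entrez identifier.

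Arrays were scaled to the geometric mean of the array medians (18.2), given a floor at their pooled 25th percentile (3.96) and put on the log2 scale. limma 3.58.1 in R 4.3.3 fitted 4 group means over all 12 arrays, with two-sided moderated tests and Benjamini-Hochberg adjustment over all spots at 0.05. Where no array of a group exceeded its limit, the fold is a bound, computed as the brighter mean divided by the mean, for the dimmer arrays, of the higher of limit and own value. The script was checked on simulated data. The number of arrays limits the precision. The labels do not say that replicates came from separate cultures, so p-values measure only the array-to-array spread, possibly technical.

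The correlation of deviations from group means between arrays of the same number was 0.480 to 0.627 in MLO-Y4 and 0.0673 to 0.113 in 2T3. The main fit did not use the numbers as pairs in either line. The block within each line, an alternative, used them in both. Between 2T3 C0 and the MLO-Y4 groups it was 0.263 to 0.504, and between 2T3 low and those groups -0.118 to 0.129. No slide or scan date was given.

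Members, gene lists and the detection rule were chosen with earlier results of these data known. Named were the 3 members, all measured ligands, inhibitors and receptors, in the other roles genes past the threshold plus up to 4 with the smallest p, 5 most similar genes per member, and 5 markers. Capg, Dstn, Cd44 (as a marker), Col10a1, Pparg, Tyrobp, Ptprc, Comp, Msx2, Tcf7l2 and Axin2 were named after their values were seen. Alternatives were other scalings, floors and filters, array weights, the replicate block and leaving out arrays.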

Additional observations from a re-analysis of the deposited data

How the results depend on the processing

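The line differences of the 3 genes stayed negative under all 21 alternatives each. The spot filter and the replicate block could not move these values. On unscaled intensities they were -8.40 (Sfrp2), -3.23 (Dkk2) and -3.11 (Wnt10b), Sfrp2 was at -8.10 with detected-spot scaling, and Wnt10b was at -1.35 with the floor at the 40th percentile, a change that follows from the higher floor. Of 204 alternative values for the 9 density results of the genes, 196 kept their direction and stayed past no threshold. Many of the 204 could not move the estimate. These were the spot filter, the fit on the arrays of a single line and the replicate blocks. For a difference within a line, leaving out an array of the other line could not move it either. The count is therefore no measure of stability. Dkk2 in 2T3 turned to 0.85 without scaling and 0.037 with array weights, and ran from -0.45 to 0.00071 when 1 array was left out. The median 2T3 density difference over all spots was 0.67 without scaling. Wnt10b in 2T3 turned to -0.088 without the 4 arrays numbered 1 and ran from -0.19 to 0.30 when 1 array was left out. In MLO-Y4 Wnt10b was at 0 with the higher floor and ran from -0.71 to 0 when 1 array was left out. The replicate block over all arrays raised the Wnt genes called between the lines from 13 to 14 and all spots called from 508 to 629. The block changed no density call of the 3 genes; within each line it left the Dkk2 difference in MLO-Y4 at 0.92. Spots called between the lines numbered 180 without scaling (74 higher, 106 lower) and 788 with array weights, and Wnt genes called numbered 6 without scaling, 3 of them lower. The 2T3 density comparison gave 2 spots with the higher floor and 2 with array weights. The causes of these changes were not tested except where stated. Dim signal limits Wnt10b, whose 2T3 mean lay under the limits of both MLO-Y4 arrays numbered 1.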
